A study of Mus musculus with 12 samples.

Results

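The GABAergic interneuron genes described here are 32 mouse genes whose products mark the inhibitory neurons of the hippocampus, chosen by symbol for GABA synthesis and transport, interneuron transcription factors, neuropeptides and subclass markers. They are 32 of the 27179 genes in the count table, and all 32 passed the filter on low counts that left 17937 genes for testing. RNA was sequenced from the hippocampus of 12 mice aged 3 months, of which 6 were *Nell-1+/6R* and 6 were their WT littermates, and each of these groups held 3 females and 3 males. In the 6R allele, *Nell1* carries a loss-of-function mutation induced with a chemical mutagen. The heterozygous mice carry it in every cell, and the labels name no treatment of these mice. The titles of the WT samples also contain the abbreviation for heterozygous, whereas their genotype field says WT. Counts summed to 10834905 to 16016317 per mouse. Nothing in the labels ties equally numbered mice of both genotypes to 1 litter or preparation, and p-values measure the spread between these mice.

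Interneurons release GABA, the main inhibitory transmitter of the brain. They make it from glutamate with the decarboxylases encoded by *Gad1* and *Gad2* and load it into vesicles with the transporter encoded by *Slc32a1*. In the embryo, the Dlx homeodomain factors specify them in the ganglionic eminences. Cells from the medial eminence pass through *Lhx6* and become parvalbumin and somatostatin cells, and cells from the caudal eminence become the vasoactive intestinal peptide, cholecystokinin and related cells. Nell-1 is a secreted protein that has been reported to bind Cntnap4, a membrane protein of interneurons, which is why the inhibitory genes are of interest in these mice.

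*Nell1* itself (Entrez ID 338352, GRCm38 chr7:49975350-50863289) checks the genotype labels. It stood at 36.5 ± 4.55 CPM in WT mice and 19.1 ± 1.77 CPM in the *Nell-1+/6R* genotype (SD, n = 6, where CPM are counts scaled by the library total of the mouse and its TMM factor), a log2 fold change of -0.93 with a standard error of 0.08 (adjusted p = 0.00015, edgeR's quasi-likelihood test), and every *Nell-1+/6R* mouse lay below every WT mouse. *Cntnap4* (170571, chr8:112569798-112882707) stood at 15.9 ± 2.26 CPM in WT mice and 17.1 ± 2.96 CPM in *Nell-1+/6R* mice, a log2 fold change of 0.10 ± 0.13 (standard error, as for every log2 fold change below) with an unadjusted p of 0.423 in the same test.

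Against that reduction of *Nell1*, none of the 32 interneuron genes passed the test at an adjusted p under 0.05, in which 0.0390% of all genes were called. None was past the thresholds of the study either, an unadjusted p under 0.05 with a fold above 1.5, where 1.46% of all genes were called. At an unadjusted p under 0.05 alone, 4 of the 32 were called by edgeR's test, which is 12.5% beside 3.26% of all genes. *Pvalb*, *Sst* and *Htr3a* had higher levels in *Nell-1+/6R* mice, as did 1.06% of all genes, *Maf* had lower levels, as did 2.20%, and the adjusted p of each was 1.00. For no member did the 6 mice of one genotype all lie above the 6 of the other, which was so for 0.151% of all genes. For 28 of the 32 the 95% interval of the log2 fold change lay inside 1.5-fold in both directions. The other 4 were *Cort*, *Crh*, *Dlx6* and *Erbb4*, which are among the members with the fewest counts.

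The bases upstream of 3 members are shown so that the genes with the strongest values can be seen at their promoters. *Sst* and *Pvalb* had the smallest unadjusted p among the members, and *Pvalb* and *Gad1* had the highest correlation over mice among 15 chosen pairs. Each line gives the 250 bases before the transcription start in RefSeq, build GRCm38.p6, which is the assembly called mm10, and capitals mark a motif found by search. The *Sst* window is chr16:23890845-23891094 on the minus strand and its capitals are the cAMP response element TGACGTCA. *Pvalb* has 2 windows on the minus strand, chr15:78206401-78206650, which is printed, and chr15:78204238-78204487, and neither held any of the motifs searched. The *Gad1* window is chr2:70561879-70562128 on the plus strand and its capitals are TTTATA, the reverse complement of the TATA box letters TATAAA.
Sst: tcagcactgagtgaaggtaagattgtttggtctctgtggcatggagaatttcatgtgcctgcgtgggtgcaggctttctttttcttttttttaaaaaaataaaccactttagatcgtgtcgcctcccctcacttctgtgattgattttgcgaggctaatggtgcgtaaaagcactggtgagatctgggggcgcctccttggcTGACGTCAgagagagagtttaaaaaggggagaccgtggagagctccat
Pvalb: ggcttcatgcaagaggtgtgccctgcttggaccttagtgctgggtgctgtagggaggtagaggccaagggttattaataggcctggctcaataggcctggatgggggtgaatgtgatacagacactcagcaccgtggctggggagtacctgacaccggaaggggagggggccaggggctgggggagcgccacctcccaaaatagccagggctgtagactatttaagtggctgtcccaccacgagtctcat
Gad1: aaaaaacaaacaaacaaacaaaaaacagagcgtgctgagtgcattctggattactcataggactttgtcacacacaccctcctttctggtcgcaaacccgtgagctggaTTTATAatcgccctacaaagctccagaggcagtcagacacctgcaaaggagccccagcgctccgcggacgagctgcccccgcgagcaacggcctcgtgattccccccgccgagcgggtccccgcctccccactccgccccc

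Of the 32 genes, 26 had a RefSeq promoter entry, with 42 windows in all, and 4 motifs were searched on both strands. The cAMP response element TGACGTCA, the site bound by the factor CREB, was in 1.55% of all 32851 windows and in 1 of the 42 windows of the members, that of *Sst*, where it begins 48 bases before the start. Its shorter form TGACG (or CGTCA), which lies inside it, was in 17.8% of all windows and in 11 of the 42. These were from *Cck*, *Cort*, *Crhbp*, *Dlx2*, *Dlx6os1*, *Gad2*, *Nos1*, *Sox6*, *Sst*, *Tac1* and *Vip*. The homeodomain core TAATTA, the letters that Dlx and Lhx proteins bind, was in 4.84% of all windows and in 5 of the 42, from *Adarb2*, *Cort*, *Dlx6os1* and *Tac1*. TATAAA was in 12.4% of all windows and in 4 of the 42. In *Gad1* its reverse complement begins 141 bases before the start. In *Vip* 1 of the forward copies begins 30 bases before the start, and in *Dlx6os1* the forward letters begin 86 bases and the reverse complement 30 bases before it. These are matches of letters in these windows and no measurement of binding.

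The levels of the interneuron genes in WT hippocampus spanned over 3 orders of magnitude when set on CPM per kilobase of exon, the scale on which genes can be compared. *Cck* was highest at 214.9 ± 14.4 (SD, n = 6 WT mice), followed by *Sst* at 161.4 ± 19.9 and *Npy* at 46.3 ± 5.73. *Gad1* stood at 32.2 ± 1.41, *Slc32a1* at 28.6 ± 1.40, *Pvalb* at 26.0 ± 2.69, *Cnr1* at 16.6 ± 3.18 and *Gad2* at 14.4 ± 1.598. The lowest were *Crh* at 0.715 ± 0.361, *Ndnf* at 0.640 ± 0.0543 and *Erbb4* at 0.133 ± 0.0797. Between neighbours in this order, the ranges of mean ± SD overlapped for 22 of 31 pairs. Most neighbouring ranks are thus not told apart by this spread, and the order of the genes within each mouse was not compared. The top is ordered more clearly, since *Cck*, *Sst*, *Npy* and *Gad1* each stood clear of the next gene, while *Slc32a1* overlapped with *Pvalb*. *Cck* and *Cnr1* are also transcribed in hippocampal pyramidal cells, *Reln* in Cajal-Retzius cells, *Maf* in microglia and *Sox6* in oligodendrocyte precursors, so the levels of these members belong to more than interneurons.

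**Figure D1:**
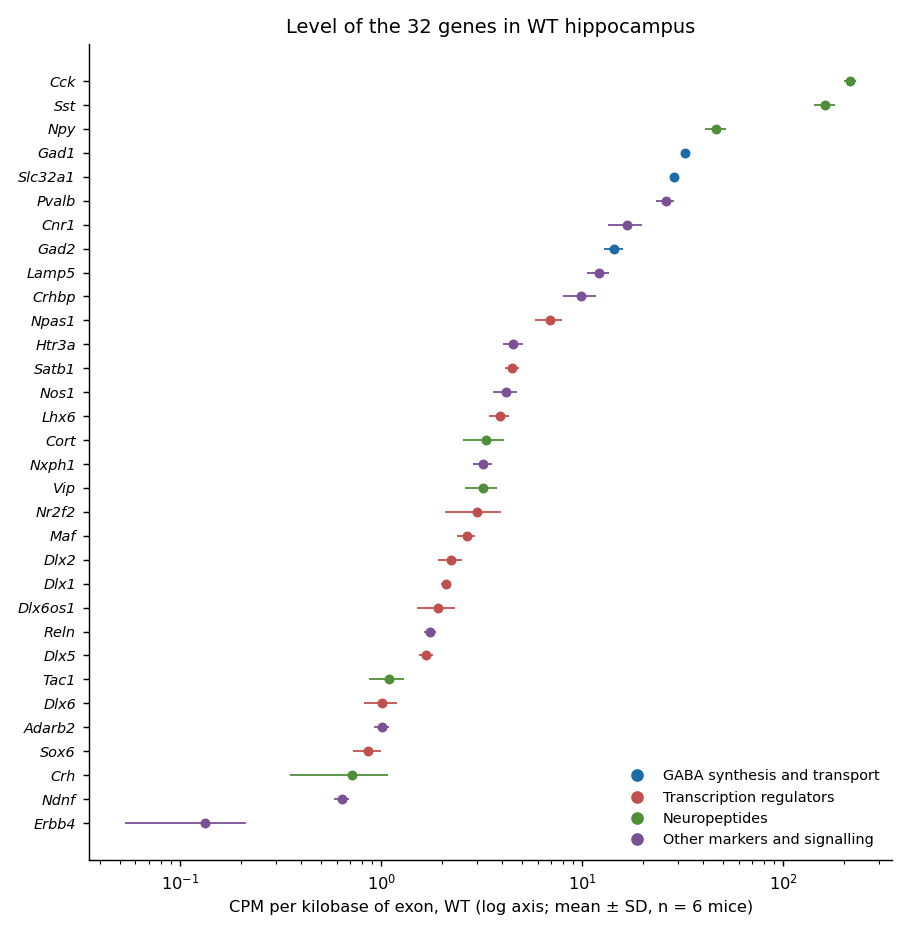
CPM per kilobase of exon of the 32 genes in WT hippocampus on a log axis, with points for the mean and lines for the SD over 6 WT mice, coloured by role. The neuropeptide genes *Cck*, *Sst* and *Npy* are at the top, the 3 genes of GABA synthesis and transport follow within the first 8, and *Erbb4* is lowest at 0.133.

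The label of the group was checked against its defining genes, and these were present in every mouse: *Gad1* had at least 2651 counts, *Gad2* at least 771 and *Slc32a1* at least 859. Genes of striatal projection neurons, the other GABAergic cells that a dissection could include, were measured too, from 1.23 CPM for *Six3* and 5.77 CPM for the dopamine receptor gene *Drd1* to 53.8 CPM for *Pde10a* and 54.4 CPM for *Ppp1r1b* in the mean of WT mice. None of them was at 0, and their part in the levels of the GABAergic genes was not tested. The 8 striatal genes summed to 134 to 177 CPM in WT mice and 123 to 162 CPM in *Nell-1+/6R* mice, and none of the 8 was called at an unadjusted p under 0.05. The 32 members themselves summed to 1329 to 1442 CPM in WT mice and 1309 to 1654 CPM in *Nell-1+/6R* mice, so the ranges overlap and the second is wider. In bulk tissue, a difference in the number of interneurons and a difference in RNA per interneuron cannot be told apart.

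**Figure D2:**
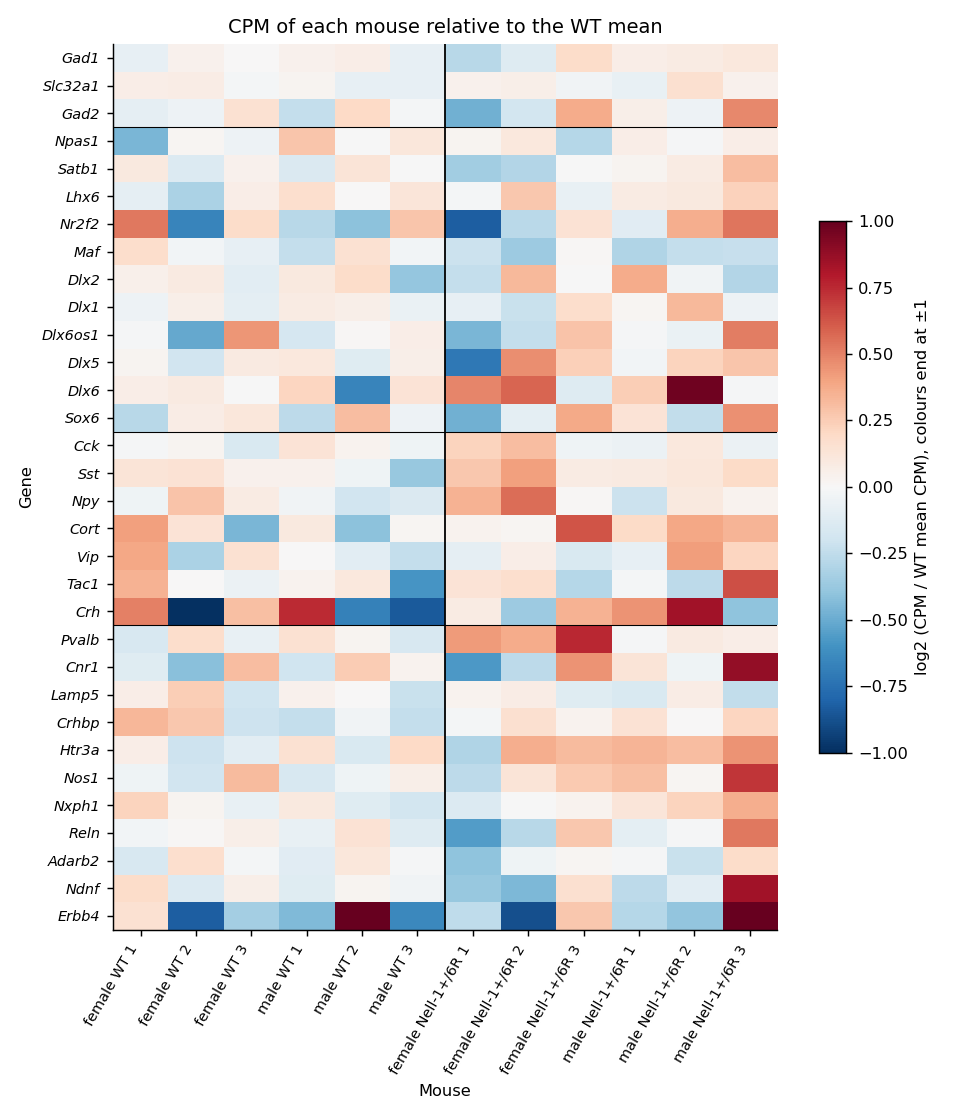
Each cell shows the log2 ratio of a mouse's CPM to the WT mean of the gene, with the 32 genes in rows by role and the 12 mice in columns, WT left of the line and Nell-1+/6R right of it. Colours end at 1 in both directions. Female Nell-1+/6R replicate 1 is mostly blue and male Nell-1+/6R replicate 3 mostly red, and *Sst* lies above its WT mean in all 6 Nell-1+/6R mice.

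The genes that make and load GABA were close to equal in both genotypes. *Gad1* (14415, chr2:70561303-70602014), the gene of the decarboxylase that makes most of the GABA in the brain, stood at 233, 253 and 246 CPM in female WT mice and at 253, 258 and 233 CPM in male WT mice. It stood at 203, 225 and 280 CPM in female *Nell-1+/6R* mice and at 258, 260 and 264 CPM in male *Nell-1+/6R* mice. The *Nell-1+/6R* females were both the lowest and the highest of all 12 mice, and the *Nell-1+/6R* males were close together. The log2 fold change was 0.01 ± 0.07 with a 95% interval from -0.14 to 0.16.

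*Gad2* (14417, chr2:22621015-22693877), the decarboxylase gene tied to synaptic terminals, stood at 79.4, 81.6 and 94 CPM in female WT mice and at 71.5, 96.6 and 83.1 CPM in male WT mice. In *Nell-1+/6R* mice it stood at 60.6, 74.2 and 109 CPM in females and at 88.1, 81.4 and 118 CPM in males. *Nell-1+/6R* mice thus held both extremes, and the log2 fold change was 0.06 ± 0.14 with an interval from -0.23 to 0.36. *Slc32a1* (22348, chr2:158607260-158615747), the vesicular GABA transporter gene, was the steadiest member, with a coefficient of variation of 5.26% over the 12 mice. It stood at 83.8, 84.1 and 78.9 CPM in female and 81.5, 75.4 and 75.5 CPM in male WT mice, and at 82.3, 83.4 and 78 CPM in female and 75.8, 89.4 and 82.2 CPM in male *Nell-1+/6R* mice. Its log2 fold change was 0.04 ± 0.05 with an interval from -0.08 to 0.15. The spans of *Gad1* and *Slc32a1* overlap with those of the noncoding transcripts *Gad1os* and *Gm14204*, to which 25 and 984 counts were assigned over the 12 mice. Since the sources used here give no strand setting for the counting, reads of such partners cannot be told apart.

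Among the 7 neuropeptide genes, all 7 had a log2 fold change above 0, with a median of 0.15 beside 0.00 over all genes tested, and 1 of the 7 was called at an unadjusted p under 0.05. For this and the following groups, the shares among all genes are 49.7% above 0 and 3.26% called. That gene was *Sst* (20604, chr16:23889573-23891342), which encodes somatostatin, the peptide of dendrite-targeting interneurons. *Sst* stood at 127, 129 and 120 CPM in female WT mice and at 120, 113 and 89.6 CPM in male WT mice. In *Nell-1+/6R* mice it stood at 140, 155 and 123 CPM in females and at 124, 126 and 133 CPM in males. The genotypes overlap, with 3 of 6 *Nell-1+/6R* mice above the highest WT mouse and none below the lowest, and male WT replicate 3 is the lowest mouse. The log2 fold change was 0.20 ± 0.07, which is 1.15-fold, with an unadjusted p of 0.0187 and an adjusted p of 1.00 in edgeR's test. The two-sided exact permutation test over the 924 splits of the 12 mice gave p = 0.0411, where 0.00216 is the smallest p it can give. Without female *Nell-1+/6R* replicate 2 the log2 fold change was 0.17 with an unadjusted p of 0.0511 in edgeR's test.

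*Npy* (109648, chr6:49822710-49829507), which encodes neuropeptide Y and is made by neurogliaform and many somatostatin cells, stood at 25.4, 31.9 and 27.7 CPM in female WT mice and at 25.5, 22.9 and 23.7 CPM in male WT mice. It stood at 33.3, 38.5 and 26.4 CPM in female and at 22.5, 28.0 and 26.8 CPM in male *Nell-1+/6R* mice. The highest values are those of female *Nell-1+/6R* replicates 1 and 2, and the lowest is that of male *Nell-1+/6R* replicate 1. The log2 fold change was 0.15 ± 0.10 (unadjusted p = 0.134, edgeR's test). *Vip* (22353, chr10:5639193-5647617), the peptide gene of interneurons that inhibit other interneurons, stood at 14.2, 8.73 and 12.1 CPM in female WT mice and at 10.9, 10.1 and 9.23 CPM in male WT mice. In *Nell-1+/6R* mice it stood at 10.2, 11.4 and 9.77 CPM in females and at 10.3, 14.5 and 12.6 CPM in males. Its log2 fold change was 0.07 ± 0.14, and the ranges nearly coincide. *Cck*, the cholecystokinin gene, stood at 280.4 ± 18.7 CPM in WT mice and 298.0 ± 33.4 CPM in the *Nell-1+/6R* genotype (SD, n = 6), a log2 fold change of 0.09 ± 0.07. *Cort*, the cortistatin gene, had 20 to 49 counts per mouse and a log2 fold change of 0.28 ± 0.18. *Tac1*, the substance P precursor gene, had one of 0.09 ± 0.19. *Crh*, the corticotropin-releasing hormone gene, had 6 to 23 counts per mouse and a log2 fold change of 0.21 ± 0.34 with an interval from -0.51 to 0.94, the widest interval of the peptides.

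Of the 11 transcription regulators, 9 had a log2 fold change above 0, the median was 0.04, and 1 was called at an unadjusted p under 0.05. That gene was *Maf* (17132, chr8:115703253-115706894), which encodes a leucine zipper factor of interneurons from the medial eminence. *Maf* stood at 24.7, 21.5 and 20.7 CPM in female WT mice and at 18.6, 24.3 and 21.5 CPM in male WT mice. In *Nell-1+/6R* mice it stood at 18.9, 17.0 and 22.1 CPM in females and at 17.8, 18.6 and 18.7 CPM in males. All but 1 *Nell-1+/6R* mouse lay below 19 CPM, and male WT replicate 1 lay there too. The log2 fold change was -0.22 ± 0.09, with an unadjusted p of 0.024 and an adjusted p of 1.00 in edgeR's test and p = 0.039 in the two-sided exact permutation test. The 5 microglial genes, whose cells also transcribe *Maf*, summed to 369 to 400 CPM in WT mice and 345 to 399 CPM in *Nell-1+/6R* mice, and none was called. *Maf* was no longer called without any one of 5 mice, for instance at -0.17 with an unadjusted p of 0.0679 without male WT replicate 2.

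The distal-less genes lie in pairs, *Dlx1* beside *Dlx2* on chromosome 2 and *Dlx5* beside *Dlx6* on chromosome 6, and specify GABAergic neurons. *Dlx6* (13396, chr6:6863334-6867970) had the highest log2 fold change of the 32 genes, 0.40 ± 0.21, with an unadjusted p of 0.071 and an interval from -0.04 to 0.85. It stood at 2.51, 2.55 and 2.39 CPM in female WT mice and at 2.78, 1.52 and 2.64 CPM in male WT mice, and at 3.37, 3.59 and 2.19 CPM in female and 2.84, 4.70 and 2.38 CPM in male *Nell-1+/6R* mice. The value rests on 18 to 64 counts per mouse, with 4 of 6 *Nell-1+/6R* mice above the highest WT mouse. *Dlx6* lies within the span of the antisense transcript *Dlx6os1*, also a member, with 1616 counts over the 12 mice beside 442 of *Dlx6*, and *Dlx6os1* had a log2 fold change of 0.03 ± 0.18. *Dlx5* had one of 0.12 ± 0.17, *Dlx1* of 0.04 ± 0.10 and *Dlx2* of 0.04 ± 0.15. The antisense partner of *Dlx1*, *Dlx1as*, had 2022 counts over the 12 mice, more than the 1820 of *Dlx1*, so the level of *Dlx1* is uncertain by the strand setting.

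*Lhx6*, the factor that marks cells from the medial eminence, stood at 18.7 ± 2.17 CPM in WT mice and 20.0 ± 1.86 CPM in *Nell-1+/6R* mice, a log2 fold change of 0.10 ± 0.09. *Sox6*, which acts after it, had one of 0.06 ± 0.16. *Satb1* (20230, chr17:51736187-51833290), a chromatin organizer needed for maturation of somatostatin cells, had one of -0.03 ± 0.09. *Npas1* had one of 0.01 ± 0.10, and *Nr2f2*, a factor of cells from the caudal eminence, had one of 0.01 ± 0.23. *Nr2f2* ranged over both genotypes from 14.6 to 37.4 CPM, and both ends of that range were *Nell-1+/6R* mice.

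Of the 11 subclass markers and signalling genes, 9 had a log2 fold change above 0, the median was 0.10, and *Pvalb* and *Htr3a* were called at an unadjusted p under 0.05. *Pvalb* (19293, chr15:78191112-78206400) encodes parvalbumin, the calcium buffer of fast-spiking basket cells. It stood at 24.3, 30.6 and 25.7 CPM in female WT mice and at 30.1, 27.6 and 24.2 CPM in male WT mice. It stood at 36.3, 35.1 and 45.7 CPM in female *Nell-1+/6R* mice and at 26.8, 28.9 and 28.3 CPM in male *Nell-1+/6R* mice. The 3 *Nell-1+/6R* females were the 3 highest of the 12 mice, whereas the *Nell-1+/6R* males lay within the range of the WT males. Over both sexes the log2 fold change was 0.29 ± 0.11, which is 1.23-fold, with a 95% interval from 0.06 to 0.53, an unadjusted p of 0.0176 and an adjusted p of 1.00 in edgeR's test. The two-sided exact permutation test gave p = 0.0541. Without female WT replicate 1 the log2 fold change was 0.23 with an unadjusted p of 0.0524 in edgeR's test.

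*Htr3a* (15561, chr9:48899213-48911152) encodes a subunit of the ionotropic serotonin receptor, which marks many interneurons from the caudal eminence. It stood at 9.90, 8.19 and 8.80 CPM in female WT mice and at 10.5, 8.54 and 10.9 CPM in male WT mice. It stood at 7.67, 12.2 and 11.8 CPM in female and at 12, 11.7 and 12.9 CPM in male *Nell-1+/6R* mice. All but 1 of the *Nell-1+/6R* mice lay above every WT mouse, and the exception, female *Nell-1+/6R* replicate 1, was the lowest of the 12. The log2 fold change was 0.26 ± 0.12, which is 1.20-fold, with an unadjusted p of 0.0431 and an adjusted p of 1.00 in edgeR's test and p = 0.0823 in the exact permutation test. It was 0.35 without female *Nell-1+/6R* replicate 1, and it was no longer called without any one of 8 other mice, for instance at 0.22 with an unadjusted p of 0.106 without female *Nell-1+/6R* replicate 2.

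**Figure D3:**
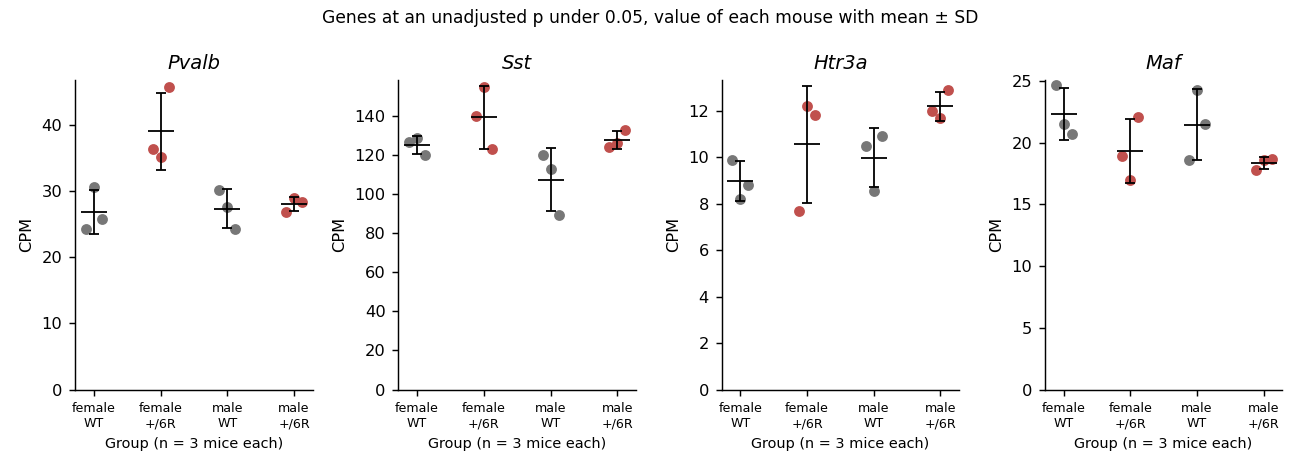
CPM of each mouse for the 4 genes at an unadjusted p under 0.05, by sex and genotype, with 3 mice in each group and bars for mean ± SD. The 3 female Nell-1+/6R mice are highest for *Pvalb*, all 3 male Nell-1+/6R mice lie above the 3 male WT mice for *Sst* and *Htr3a*, and 1 female Nell-1+/6R mouse is lowest for *Htr3a*.

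The other 9 genes of that group did not pass even the unadjusted threshold. *Nos1*, which encodes the neuronal nitric oxide synthase, had a log2 fold change of 0.21 ± 0.14 (unadjusted p = 0.135) and *Cnr1*, the cannabinoid receptor gene of cholecystokinin basket cells, one of 0.16 ± 0.20. *Nxph1* (18231, chr6:8948614-9249619), which encodes the neurexin ligand neurexophilin, and *Crhbp*, which encodes a binding protein of corticotropin-releasing hormone, both had one of 0.10, with standard errors of 0.10 and 0.11. The neurogliaform genes *Lamp5*, *Ndnf* and *Reln* had log2 fold changes of -0.05 ± 0.09, 0.02 ± 0.19 and 0.01 ± 0.14, and *Adarb2*, a gene of cells from the caudal eminence, one of -0.07 ± 0.10. *Erbb4*, the neuregulin receptor gene, had the widest interval, from -0.60 to 1.32, around 0.36. It stood at 6.49 CPM in male *Nell-1+/6R* replicate 3 and 3.55 CPM in male WT replicate 2, and between 0.896 and 1.98 CPM in the other mice.

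**Figure D4:**
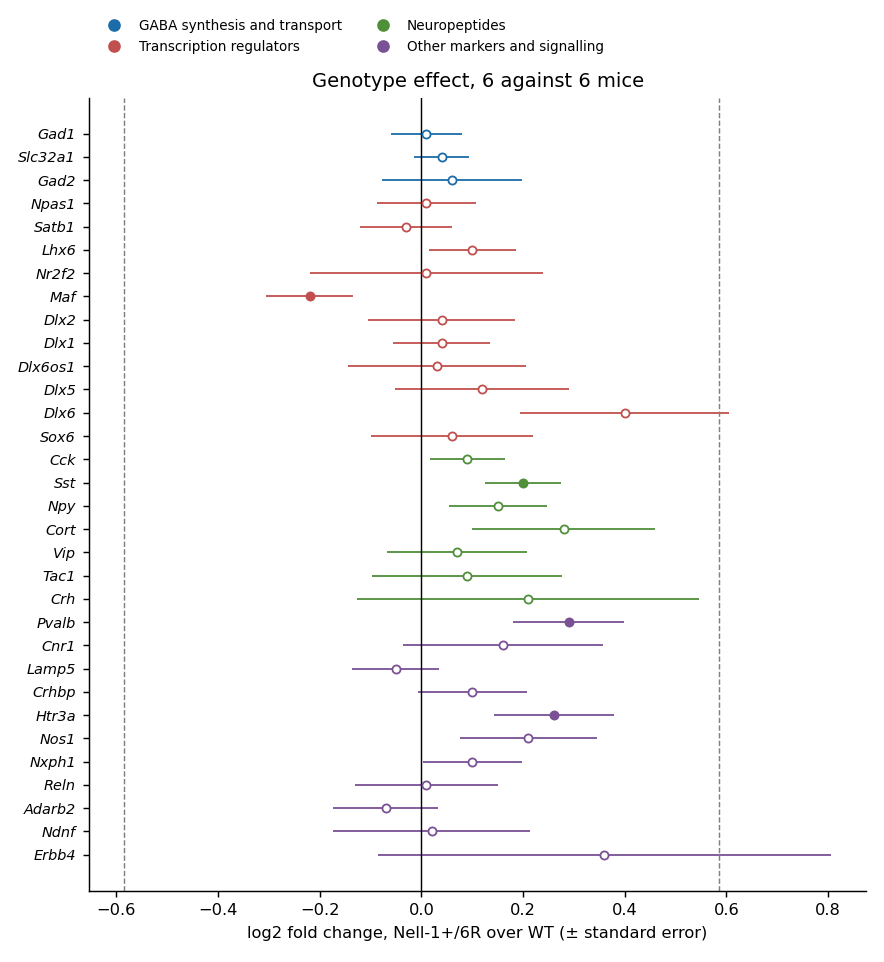
Log2 fold change of the 32 genes, Nell-1+/6R over WT with 6 mice each, with lines for the standard error and colours for the role. Filled points are the 4 genes at an unadjusted p under 0.05 (*Pvalb* 0.29, *Htr3a* 0.26, *Sst* 0.20, *Maf* -0.22), and dashed lines mark 1.5-fold, which no point reaches.

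Read by origin, the 8 members of cells from the medial eminence had a median log2 fold change of 0.10 with 6 above 0, and the 7 members of cells from the caudal eminence had a median of 0.07 with 6 above 0. Both lists hold genes that other cells also transcribe, *Maf* and *Sox6* in the first and *Cck* and *Cnr1* in the second. Over all 32 members the median was 0.08 and 28 were above 0, beside 49.7% above 0 among all genes. Many of the 28 lay close to 0, and 11 of the 32 members kept the same sign in each of 25 alternatives, while *Reln* and *Ndnf* changed it in 9 of them. Without male *Nell-1+/6R* replicate 3 the median was 0.04. The median was -0.01 in females alone and 0.19 in males alone, a difference that was not itself tested.

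Single mice stood at the edge for many members. Male *Nell-1+/6R* replicate 3 was the highest of the 12 mice for 14 of the 32 members, beside 15.1% of all genes, and female *Nell-1+/6R* replicate 1 was the lowest for 11 members, beside 15.9% of all genes. That female also had the highest sum of choroid plexus genes, 5081 CPM. Of the other mice rich in these genes, male WT replicate 3 at 4570 CPM was the lowest for 6 members, beside 6.19% of all genes, female WT replicate 1 at 2056 CPM for 1 member, beside 7.06%, and female WT replicate 2 at 772.9 CPM for 4, beside 6.96%. The part of choroid plexus tissue in their values was not tested. The 14 members that peaked in that male, among them *Gad2*, *Reln*, *Nos1*, *Satb1* and *Erbb4*, had a median exon length of 9.37 kb, and the other 18 one of 2.59 kb. Over 13883 genes, the deviation of a mouse from the mean followed exon length with a Spearman rho of 0.35 in that male and -0.39 in that female, and between -0.40 and 0.34 in the other mice, as a description across genes of each library. The value of -0.40 was that of female *Nell-1+/6R* replicate 2, the highest mouse for 5 members, beside 13.1% of all genes. Among the 5 were *Sst*, *Npy* and *Cck*, with exons of 0.721, 0.566 and 1.3 kb. The part of exon length in these values was not tested. Without male *Nell-1+/6R* replicate 3 and female *Nell-1+/6R* replicate 1, *Pvalb* stood at 0.32 (unadjusted p = 0.024, edgeR's test) and *Htr3a* at 0.34 (unadjusted p = 0.0069), while *Sst* and *Maf* were no longer called, at 0.18 (unadjusted p = 0.055) and -0.21 (unadjusted p = 0.0557).

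Whether the genotype effect differed between the sexes was tested in a model of the 4 groups. No gene of the table passed the interaction at an adjusted p under 0.05 (0% of all genes), while 554 of 17937 genes, 3.09%, had an unadjusted p under 0.05 by edgeR's test. Among the members there were 3, *Pvalb*, *Nxph1* and *Satb1*, each with an adjusted p of 0.987. For *Pvalb* the effect was 0.54 ± 0.13 in females and 0.04 ± 0.13 in males, a difference of -0.50 ± 0.18 (males minus females, unadjusted p = 0.0144). On the same values, *Pvalb* was the one member whose genotypes did not overlap within the females, which is 3.12% of the members beside 6.00% of all genes. The *Pvalb* difference kept an unadjusted p under 0.05 in edgeR's test with each single mouse left out, between -0.61 and -0.38. It was -0.67 without the 4 mice rich in choroid plexus genes that are described below. In that fit female WT replicate 3 was the only female WT mouse.

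For *Nxph1* the effect was -0.10 ± 0.12 in females and 0.30 ± 0.12 in males, a difference of 0.40 ± 0.17 (unadjusted p = 0.0351, edgeR's test). Female WT mice had 17.8, 15.5 and 14.5 CPM and female *Nell-1+/6R* mice 13.9, 15.2 and 15.6 CPM. Male WT mice had 16.3, 14 and 13.4 CPM and male *Nell-1+/6R* mice 16.6, 17.8 and 19.6 CPM. The males of the genotypes thus did not overlap and the females did. For *Satb1* the effect was -0.21 ± 0.11 in females and 0.14 ± 0.11 in males, a difference of 0.35 ± 0.16 (unadjusted p = 0.0472, edgeR's test). *Satb1* stood at 91.3, 77.7 and 87.9 CPM in female WT and 67.3, 69.6 and 85.4 CPM in female *Nell-1+/6R* mice, and at 77.4, 93.5 and 85.2 CPM in male WT and 87.1, 90.4 and 106 CPM in male *Nell-1+/6R* mice. Neither call was stable. *Satb1* was no longer called in 11 of 17 alternative fits, DESeq2's size factors among them, with 8 of them leaving out a single mouse, and it stood between 0.20 and 0.47. *Nxph1* was no longer called in 7 of 17, with 5 of them leaving out a single mouse. The *Nxph1* difference was 0.19 in place of 0.40 without the 4 mice rich in choroid plexus genes that are described below. That fit is among those counted for *Satb1* and *Nxph1*. It left female WT replicate 3 as the only female WT mouse, so it cannot decide whether a call is stable.

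Within the females, 2 members were called at an unadjusted p under 0.05, which is 6.25% beside 2.84% of all genes. They were *Pvalb* and *Cck*, the latter at 0.22 ± 0.10 (unadjusted p = 0.0412), and *Cck* was no longer called when the females were fitted by themselves (unadjusted p = 0.0666, edgeR's test). Within the males, 3 members were called, 9.38% beside 3.37% of all genes, *Sst* at 0.25 ± 0.11 (unadjusted p = 0.0415), *Nos1* at 0.42 ± 0.18 (unadjusted p = 0.0399) and *Nxph1*. When the males were fitted by themselves, *Crhbp* (unadjusted p = 0.0324) and *Htr3a* (unadjusted p = 0.0487) were called beside these. In the model of 4 groups, each of these members had an adjusted p of 1.00 in edgeR's test. The male mice of the genotypes did not overlap for *Cort*, *Crhbp*, *Gad1*, *Htr3a*, *Nxph1* and *Sst*, 6 of the 32 or 18.8%, beside 10.4% of all genes.

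**Figure D5:**
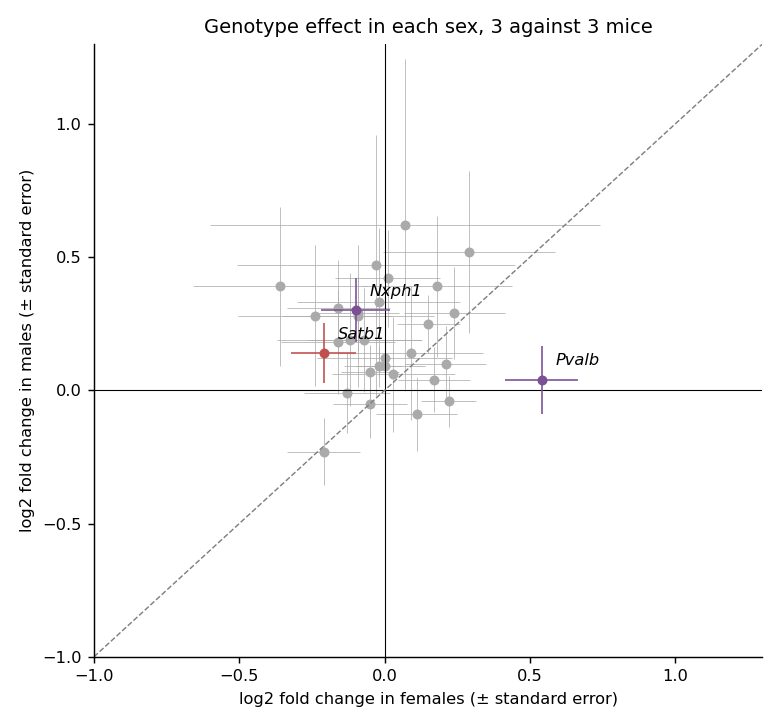
Log2 fold change of each of the 32 genes in females (horizontal axis) and in males (vertical axis), 3 against 3 mice each, with lines for the standard error and a dashed line for equal effects. *Pvalb* lies to the right at 0.54 in females and 0.04 in males, *Nxph1* and *Satb1* lie upper left, and most other genes lie above 0 in males and on both sides of 0 in females.

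Sex itself was the other condition of the design. At an unadjusted p under 0.05, 2 members differed between males and females, 6.25% beside 4.72% of all genes, and both were lower in males. The difference of males from females was -0.29 ± 0.10 for *Npy* (unadjusted p = 0.0093) and -0.17 ± 0.07 for *Sst* (unadjusted p = 0.0362), with an adjusted p of 0.868 for both in edgeR's test. The next member was *Pvalb* at -0.23 ± 0.11 (unadjusted p = 0.0507), for which the female *Nell-1+/6R* mice were highest.

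Whether interneuron genes vary together over mice was read from 15 pairs chosen for known co-expression or neighbouring position, after the mean of each of the 4 groups had been removed. The pairs were tested by an exact permutation of the mice within each group, which has 1296 arrangements and was chosen after seeing the data, and no pair passed at an adjusted p under 0.05. *Pvalb* and *Gad1* had the highest value, Pearson r = 0.791 (exact permutation p = 0.0255, adjusted p = 0.211 over 15 pairs) and Spearman rho = 0.874 (exact permutation p = 0.0154, adjusted p = 0.231, n = 12), and leaving out the 2 mice with *Pvalb* farthest from its median gave r = 0.853. *Gad1* and *Gad2* had r = 0.757 (exact permutation p = 0.0617, adjusted p = 0.211) and rho = 0.58 (exact permutation p = 0.113, adjusted p = 0.284), and r was 0.652 without the 2 farthest mice.

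*Cck* and *Cnr1*, which both mark cholecystokinin basket cells, had the lowest value, r = -0.765 (exact permutation p = 0.0293, adjusted p = 0.211) and rho = -0.727 (exact permutation p = 0.0409, adjusted p = 0.284), and r was -0.799 without the 2 farthest mice. The exons of *Cck* span 1.3 kb and those of *Cnr1* 6.44 kb, and the part of exon length in this value was not tested. The other 12 pairs lay between -0.542 for *Dlx6* and *Dlx6os1* and 0.567 for *Sst* and *Npy*, with an adjusted p of 0.211 or more. The neighbours *Dlx1* and *Dlx2* had r = 0.0443 and *Dlx5* and *Dlx6* r = 0.0111 (exact permutation p = 0.91 and 0.982).

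Genes of the same pathway outside the 32 gave little difference between genotypes. Of 24 further interneuron genes, none was called at an unadjusted p under 0.05 by edgeR's test and 13 were above 0, with a median log2 fold change of 0.01. Of 21 genes for GABA uptake, breakdown, chloride balance and the inhibitory synapse, 1 was called, *Iqsec3* (243621, chr6:121372927-121473738), a guanine exchange factor of inhibitory synapses, at 399.9 ± 25.3 CPM in WT mice and 442.0 ± 38.0 CPM in the *Nell-1+/6R* genotype (SD, n = 6). Its log2 fold change was 0.14 ± 0.06 with an unadjusted p of 0.0431 and an adjusted p of 1.00 in edgeR's test, and the median of the 21 was 0.02.

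Of 10 genes of hippocampal principal neurons, which also transcribe *Cck* and *Cnr1*, 2 had higher and 1 had lower levels at an unadjusted p under 0.05. Their log2 fold changes ran from -0.33 to 0.25, with 6 of the 10 above 0 and a median of 0.08. The members had a median of 0.08 with 28 of 32 above 0, and the difference between the lists was not tested.

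Markers of neighbouring tissue differed between single mice. The 6 choroid plexus genes, of which *Ttr* is the best known, summed to 50.5 to 4570 CPM in WT mice and 40.9 to 5081 CPM in *Nell-1+/6R* mice, with 4 mice above 500 CPM, of which 3 were WT. The 8 leptomeningeal genes summed to 110 to 354 CPM in WT mice and 66.2 to 365 CPM in *Nell-1+/6R* mice, and 5 of the 8 had lower levels in *Nell-1+/6R* mice at an unadjusted p under 0.05. Of the thalamus and habenula list, all 5 genes tested had a log2 fold change below 0, with the vesicular glutamate transporter gene *Slc17a6* at -1.23 (unadjusted p = 1.17e-06) past the adjusted threshold of edgeR's test. The others, *Tcf7l2*, *Lef1*, *Prkcd* and *Gng8*, were at -0.19, -0.19, -0.10 and -0.43, and none was called at an unadjusted p under 0.05. *Slc17a6* (chr7:51621830-51671126) lies near *Nell1*, which ends at 50863289 on the same chromosome. Whether its value goes with tissue or with position was not tested. Of 4 genes of Cajal-Retzius cells, which make *Reln*, the most abundant, *Trp73*, was at 0.18 (unadjusted p = 0.299), *Ebf3* at -0.22 (unadjusted p = 0.287), *Lhx1*, on 17 counts in WT and 46 in *Nell-1+/6R* mice, at 1.41 (unadjusted p = 0.0971) and *Lhx5*, on 15 counts in WT and 41 in *Nell-1+/6R* mice, at 1.46 (unadjusted p = 0.00316), all by edgeR's test. A single *Nell-1+/6R* mouse held 30 of the counts of *Lhx1*. No list had a gene at 0 in all mice, and the part of these cells in the values of the interneuron genes was not tested, beyond leaving out the 4 mice rich in choroid plexus genes. Without these mice, *Pvalb* stood at 0.20 (unadjusted p = 0.194), *Sst* at 0.16 (unadjusted p = 0.0868), *Maf* at -0.17 (unadjusted p = 0.197) and *Htr3a* at 0.39 (unadjusted p = 0.00645) in edgeR's test. *Cort* at 0.58 (unadjusted p = 0.0289) and *Crhbp* at 0.27 (unadjusted p = 0.0247) were called in that fit, which called 1.75% of all genes.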

How the data were processed

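RNA of the hippocampus of 12 mice was sequenced as single reads. The authors aligned the reads to mm10 with HISAT2 2.1.0 and counted them per Entrez gene with featureCounts 2.0.1, versions per the submitters' processing notes (the study's methods name another version of featureCounts), and deposited raw counts without normalization. The sources used here give neither the strand setting nor the treatment of reads with several hits. Of 27179 gene IDs, 25275 were named by RefSeq of GRCm38, and 0 columns were left unmatched. Exon lengths are from GENCODE M21, and all 32 members had one.

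Genes that reached 0.2 CPM in 2 or more mice were tested with edgeR 4.0.16 (R 4.3.3), TMM factors and the quasi-likelihood test for sex and genotype, with Benjamini-Hochberg adjustment over all 17937 genes. The standard error is the absolute log2 fold change over the square root of F, and the 95% interval uses the degrees of freedom of each gene. The interaction and the effect in each sex are from a model of 4 groups. The code was tested on simulated data. Alternatives were limma 3.58.1 (limma-voom) and DESeq2 1.42.0, other size factors, filters and designs, and each mouse left out. Pairs used log2 CPM (prior count of 2), 100000 free permutations as first planned and an exact permutation within the 4 groups. Tables and figures were made in Python 3.11.15 (scipy 1.17.1, numpy 2.4.6, pandas 2.3.3, matplotlib 3.10.9).

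The members and all lists were chosen with earlier results of these data known. Values per mouse were given, by a fixed rule, for *Gad1*, *Gad2*, *Slc32a1*, *Pvalb*, *Sst*, *Vip* and *Npy*, for members at an unadjusted p under 0.05 in the genotype effect or the interaction, and for the 6 members with the smallest p. *Erbb4*, *Cck* and *Nr2f2* are described beyond that rule, after their values were seen.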

Additional observations from a re-analysis of the deposited data

Results flagged for a closer look

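In 6 of 64 groups of 6 mice (32 genes in 2 genotypes), the highest or lowest mouse stood apart from the nearest other by a larger share of the group's range than Dixon's 95% critical value, which chance exceeds in about 1 of 20 groups. Among the WT mice these were male WT replicate 2 for *Dlx6*, at 1.52 CPM with the next mouse at 2.39, and the same mouse for *Erbb4*, at 3.55 CPM with the next at 1.83. Among the *Nell-1+/6R* mice, male *Nell-1+/6R* replicate 3 stood high for *Erbb4*, at 6.49 CPM with the next at 1.98, and for *Ndnf*, at 11.6 CPM with the next at 7.22. Female *Nell-1+/6R* replicate 1 stood low for *Htr3a*, at 7.67 CPM with the next at 11.7. Female *Nell-1+/6R* replicate 3 stood low for *Npas1*, at 17.0 CPM with the next at 20.5.

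The genotype effect differed between the sexes at an unadjusted p under 0.05, in a test of the interaction with edgeR, for *Pvalb* by -0.50 (males minus females), for *Satb1* by 0.35 and for *Nxph1* by 0.40. None of the 3 passed after adjustment over all genes.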

How the results depend on the processing

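The count of members at an adjusted p under 0.05 and the count past the study's thresholds were 0 in the main analysis and in each of 25 alternatives. The count at an unadjusted p under 0.05, 4 in the main analysis, was 1 to 5 with each mouse left out, 1 in females alone, 5 in males alone and 2 without both female *Nell-1+/6R* replicate 1 and male *Nell-1+/6R* replicate 3, an alternative chosen after seeing the data, as was leaving out the 4 mice rich in choroid plexus genes. It was 2 without male WT replicate 2 and 1 without female *Nell-1+/6R* replicate 2. The share of all genes, 3.26% in the main analysis, was 1.95% in females alone, 5.12% in males alone, 2.51% without male WT replicate 2, 2.14% without female *Nell-1+/6R* replicate 2 and 4.02% without both mice. It was 4.85% without female *Nell-1+/6R* replicate 1 and 5.12% without female *Nell-1+/6R* replicate 3, the single mice without which 5 members were called. The median log2 fold change of the members was 0.04 to 0.12 with each mouse left out, 0.19 in males alone and -0.01 in females alone. Of the single mice, the lowest median came without male *Nell-1+/6R* replicate 3 and the highest without female *Nell-1+/6R* replicate 1. The count of members with an interaction, 3 in the main analysis, was 1 to 8 with each mouse left out and 1 without both of those mice. It was 8 without female *Nell-1+/6R* replicate 3, 5 without female WT replicate 2, and 1 without any one of male *Nell-1+/6R* replicate 3, female WT replicate 1 and female *Nell-1+/6R* replicate 1. The share of all genes with an interaction, 3.09% in the main analysis, was 10.3% without female *Nell-1+/6R* replicate 3, 4.95% without female WT replicate 2, 1.71% without both mice and 2.13% to 2.64% in the other 3 fits. The cause was not tested in any of these. Of the 15 pairs over mice, 3 passed by Pearson's r and 1 by Spearman's rho when all 12 mice were permuted freely, the test first planned, and 2 did by r without the 2 farthest mice. That permutation treats values with 4 group means removed as free, and 0 passed by either measure with permutation within the 4 groups, by which 3 had an unadjusted p under 0.05 by r and 2 by rho. Of the 100 values of the 4 called members under the alternatives, 28 were no longer called, 12 of *Htr3a*, 9 of *Maf*, 4 of *Sst* and 3 of *Pvalb*. Among the other members 11 values were called, and 22 members were called in no setting. Equally numbered mice deviated together with correlations from -0.20 to 0.24. Mice of unequal number were not compared, so these values cannot decide whether equal numbers stand for a pairing. In a fit with the replicate block *Pvalb* stood at 0.29, *Sst* at 0.20, *Maf* at -0.21 and *Htr3a* at 0.26, the last with an unadjusted p of 0.0677 in edgeR's test. *Crh*, *Dlx6*, *Cort* and *Erbb4* had the fewest counts of the members and intervals past 1.5-fold, and for *Erbb4* 2 mice stood apart as given above.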
